A study of Mus musculus with 2 samples.

Results

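The 10 genes examined here encode enzymes and 1 chaperone that prepare collagen for crosslinking and then crosslink it. They are the lysyl oxidases Lox, Loxl1, Loxl2, Loxl3 and Loxl4, the lysyl hydroxylases Plod1, Plod2 and Plod3, the prolyl 4-hydroxylase subunit P4ha1, and Serpinh1, which encodes the collagen chaperone HSP47. The list is defined by gene symbol, and all 10 genes were listed in both libraries, among 21722 genes listed in either.

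Liver non-parenchymal cells (NPCs) of 2 male C57BL/6 mice, both aged 8 weeks, were profiled by droplet scRNA-seq (10x Chromium 3′ chemistry). The normal mouse, whose cells are labelled as in a quiescent state, was given olive oil, and the fibrosis mouse was given carbon tetrachloride (CCl4, 15% in olive oil), both at 0.6 µl per g of body weight with 2 injections a week for 6 weeks and with cells taken 48 h after the last. No genetic change is given for either, and each mouse gave 1 library. Hepatocytes were depleted by low-speed centrifugation before loading, so that hepatocyte values below come from the few that remained.

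Fibrillar collagen is made in the endoplasmic reticulum, where P4ha1 with P4hb hydroxylates prolines, the PLOD enzymes hydroxylate lysines and HSP47 holds the folded triple helix until it leaves. Plod2 acts on lysines of the telopeptides at the ends of the chains, and Plod3 also adds sugars to hydroxylysine. Outside the cell, the lysyl oxidases oxidise lysine and hydroxylysine to aldehydes, which then form crosslinks between collagen or elastin molecules. In liver fibrosis the hepatic stellate cell (HSC), a vitamin A-storing pericyte, is the best-known source of such collagen, as a myofibroblast (MF); portal fibroblasts (PFs) are another.

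Promoter sequence is shown for Serpinh1 and P4ha1, since they were at least 2 times higher in fibrosis in all 3 endothelial classes described below and P4ha1 is known as a target of hypoxia-inducible factors. This limit was not met in every alternative given below. Loxl2 met it too, but no promoter sequence was available for it. Both lines run from 250 bases before the gene's start up to the start (RefSeq, GRCm38.p6), 5′ to 3′ on the gene's strand. Capitals mark the letters ACGTG on either strand, a form of the core of the hypoxia response element. Other forms of the core were not searched for or marked, so the counts below hold for ACGTG alone. The Serpinh1 sequence is chr7:99353240-99353489 on the minus strand and that of P4ha1 is chr10:59323046-59323295 on the plus strand, both upstream of the transcribed gene.

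Serpinh1: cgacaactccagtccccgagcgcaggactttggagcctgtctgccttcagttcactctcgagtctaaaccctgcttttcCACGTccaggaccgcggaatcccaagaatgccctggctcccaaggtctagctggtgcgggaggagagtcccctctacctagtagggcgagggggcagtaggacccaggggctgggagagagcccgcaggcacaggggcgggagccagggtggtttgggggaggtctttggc
P4ha1: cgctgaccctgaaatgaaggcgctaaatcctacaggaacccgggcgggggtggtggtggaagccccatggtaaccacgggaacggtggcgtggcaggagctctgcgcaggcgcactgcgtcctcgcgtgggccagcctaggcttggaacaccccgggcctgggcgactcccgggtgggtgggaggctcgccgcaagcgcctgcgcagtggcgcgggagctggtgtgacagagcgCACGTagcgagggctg

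The letters begin 171 bases before the start in Serpinh1 and 16 bases before it in P4ha1. Of the 5 members with a promoter in the table, 3 held them (P4ha1, Plod3 and Serpinh1), as did 5444 of all 32851 promoters of the same length (16.6%). Such a short match is a description of the window only.

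The normal library held 8130 cells with 44062632 unique molecular identifiers (UMIs) and the fibrosis library 6437 cells with 53288463, and 7471 and 6132 cells passed the filter. Medians per cell before it were 4144.5 and 5619 UMIs. Of the barcodes, 15 occurred in both libraries. Cells were clustered without the members and clusters were named from marker lists, as "HSC/MF-like" and so on. A level below is a gene's UMIs per 10000 UMIs of the class, with an exact 95% Poisson interval in brackets, and a ratio is the fibrosis level over the normal one with an exact conditional interval. These cover counting error only. With 1 mouse per condition there was no replicate and no test, and a ratio compares 2 mice. A gene was measured in a class with at least 20 UMIs over both libraries, and called higher or lower in fibrosis where its level differed at least 2 times with an interval on one side of 1. Counts from the 3′ ends do not allow levels of different genes to be compared. RNA from lysed cells enters every droplet, so the level in lymphoid-like cells (clusters named from B, NK and T cell markers, 1599 normal and 842 fibrosis cells with medians of 3165 and 2535.5 UMIs), which do not make collagen, is given beside the results.

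In the normal liver, the levels of Lox and Loxl1 were highest in PF-like cells, which held 58.7% of the Loxl1 UMIs but only 25.9% of the Lox UMIs. Loxl1, which acts mainly on elastin, had a level of 5.62 (4.87 to 6.46) in the 44 PF-like cells. It was lower in 44 cells of the mesothelial-like class, 1.29 (1.01 to 1.63), and lower again among 63 HSC/MF-like cells, 0.551 (0.350 to 0.827). None of these intervals overlapped, and the PF-like over the HSC/MF-like level gave 10.2 (6.61 to 16.5). In LSEC-like cells Loxl1 was at 0.00234, which was below the 0.00508 of lymphoid-like cells. For Lox the PF-like level was 1.66 (1.26 to 2.14). Mesothelial-like cells followed at 0.484 (0.319 to 0.705) and portal vessel endothelial-like cells at 0.447 (0.369 to 0.536), which did not differ from each other beyond counting error. The 63 HSC/MF-like cells had only 2 Lox UMIs between them, a level of 0.0480 (0.00581 to 0.173).

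Loxl2, a lysyl oxidase also active on basement membrane collagen, was more widely spread. PF-like cells of the normal liver had 2.25 (1.78 to 2.8), the mesothelial-like class 0.951 (0.712 to 1.24) and HSC/MF-like cells 0.935 (0.665 to 1.28). Endothelial levels came next, with 0.656 (0.602 to 0.712) for LSEC-like, 0.490 (0.408 to 0.583) for portal and 0.381 (0.295 to 0.484) for central vein cells. Only the step from PF-like to mesothelial-like cells and that from LSEC-like to portal cells exceeded the intervals among neighbours in this order. Loxl3 reached 0.478 in PF-like, 0.456 in HSC/MF-like and 0.276 in LSEC-like cells, whereas Loxl4 was at most 0.172 in any of the 11 classes plotted and 67.4% of its fibrosis UMIs in mesenchymal cells of all kinds.

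The enzymes that act inside the cell had other orders among the 11 classes plotted. Plod1 was highest in normal LSEC-like cells, 1.63 (1.55 to 1.72), next to Kupffer-like cells with 1.49 (1.35 to 1.65) and HSC/MF-like cells with 1.22 (0.910 to 1.61), each overlapping the next, while 14 unnamed mesenchymal cells, not plotted, held 1.96 (1.18 to 3.06). Plod2 instead led in mesothelial-like cells at 1.76 (1.43 to 2.14), above PF-like cells at 0.843 (0.569 to 1.2) and the HSC/MF-like class at 0.527 (0.331 to 0.799), of which the latter pair overlapped. Plod3 was more even, with 0.728 (0.608 to 0.866) in central vein and 0.695 (0.597 to 0.805) in portal endothelial-like cells at the top and 0.166 (0.135 to 0.202) in lymphoid-like cells.

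P4ha1 was at 1.63 (1.31 to 2.0) in mesothelial-like, 1.38 (1.02 to 1.82) in PF-like, 1.34 (1.01 to 1.74) in HSC/MF-like and 1.17 (1.04 to 1.31) in Kupffer-like cells. Each of these overlapped its neighbour, and the first and the last just failed to overlap. For Serpinh1, PF-like cells had 13.2, then came the mesothelial-like (6.10) and HSC/MF-like (5.83) classes, which did not differ beyond their intervals. Central vein (2.43, 2.21 to 2.68), portal (1.89, 1.72 to 2.06) and LSEC-like cells (1.40, 1.32 to 1.48) came next among the plotted classes, with intervals apart, and hepatocyte-like cells had 0.0801 (0.0384 to 0.147).

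**Figure D1:**
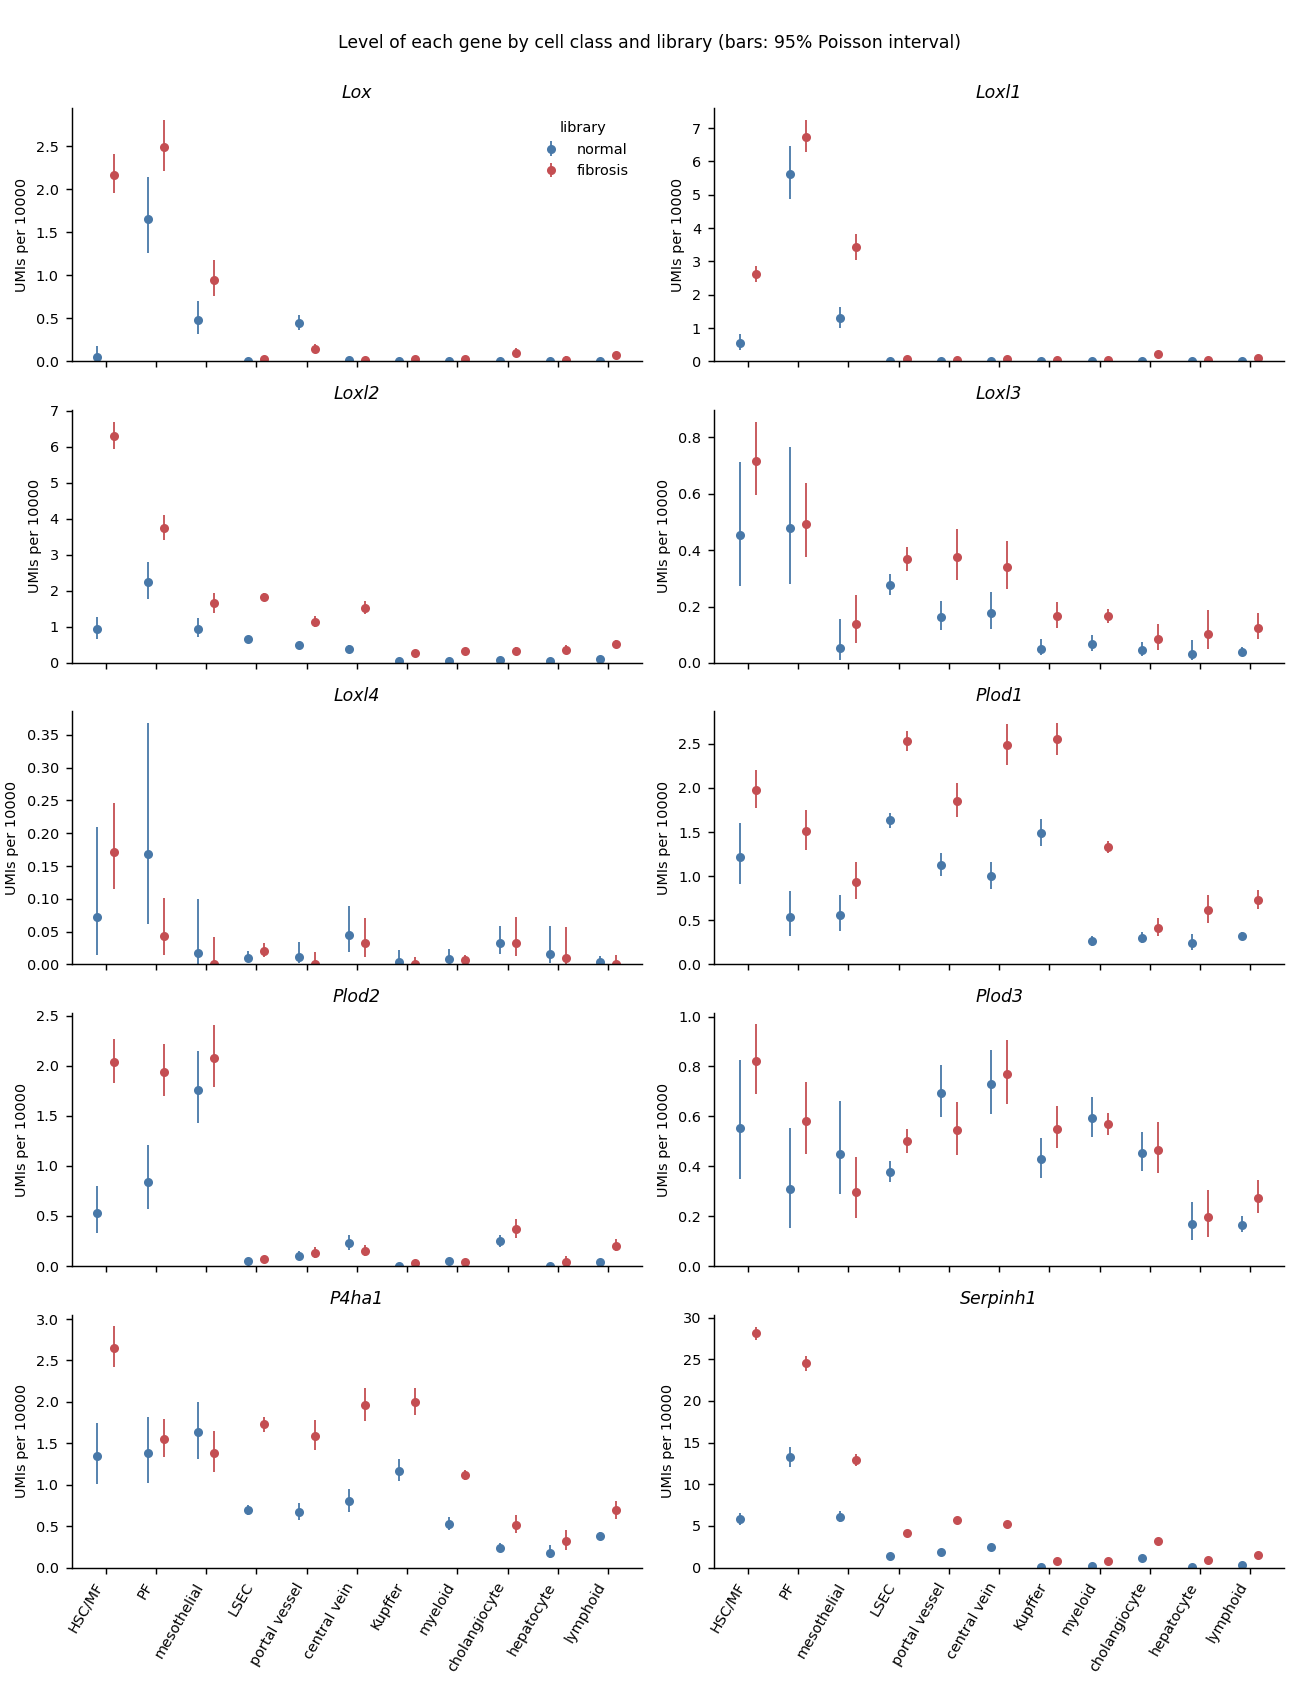
Levels of the 10 genes (UMIs per 10000 UMIs of the class, 1 panel a gene with its own vertical scale) in 11 cell classes of the normal and the fibrosis library, with exact 95% Poisson intervals for counting error. Lox in HSC/MF-like cells goes from 0.0480 to 2.17 and Serpinh1 from 5.83 to 28.1, while Plod1 and P4ha1 are spread over endothelial, Kupffer and mesenchymal cells.

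In fibrosis, HSC/MF-like cells had higher levels of 4 of the crosslinking enzymes and of the chaperone, led by Lox. Of the 10 members, all measured, 5 were called higher and 0 lower, beside 6.99% of 9528 genes higher and 5.88% lower. Among these 5, Lox alone reached the UMI minimum only through the fibrosis library, with 2 normal and 367 fibrosis UMIs. The members' median ratio was 3.13 and that of all genes was 1.06. The class was small, 63 cells in normal and 144 in fibrosis, with medians of 5926 and 10547 UMIs, and all 18 of its markers were raised over cells outside the mesenchyme in each of its 3 sub-clusters, although their summed level was 295 in normal and 149 in fibrosis cells.

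Lox was counted in 2 of 63 normal cells and in 78 of 144 fibrosis cells. On cells thinned to 1000 UMIs these were 1 of 63 (1.59%, exact binomial interval 0.04 to 8.53%) and 18 of 144 (12.5%, 7.58 to 19.0%). The level was 0.0480 in normal and 2.17 (1.95 to 2.41) in fibrosis cells, a ratio of 45.3 (12.4 to 375) whose width reflects the 2 normal UMIs. Lymphoid-like cells held Lox at 0.00846 and 0.0718 in the same libraries, and 2.14% of 842 fibrosis cells had a UMI. The fibrosis level and its interval lay above the lymphoid-like level, whereas the interval of the normal level held it.

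Loxl2 went from 0.935 to 6.31 (5.93 to 6.70), a ratio of 6.74 (4.90 to 9.54), and was counted in 20 of 63 normal and 131 of 144 fibrosis cells. The Loxl1 level was 0.551 in normal and 2.61 (2.37 to 2.86) in fibrosis cells, with a ratio of 4.73 (3.11 to 7.54). Lymphoid-like levels were 8.5% of the fibrosis level for Loxl2 and 3.7% for Loxl1. Loxl3 (0.456 and 0.716, ratio 1.57, 0.96 to 2.70) and Loxl4 (0.0719 and 0.172, ratio 2.39, 0.74 to 12.2) had intervals that held 1. Summed over the 5 genes, lysyl oxidase RNA went from 2.06 to 12 per 10000 UMIs, a ratio of 5.81 (4.68 to 7.29).

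Among the lysyl hydroxylases, Plod2 alone was called higher in HSC/MF-like cells. Its level was 0.527 (0.331 to 0.799) in normal and 2.04 (1.83 to 2.27) in fibrosis cells, a ratio of 3.87 (2.51 to 6.26). On cells thinned to 1000 UMIs the Plod2 ratio was 2.19 (0.82 to 7.32), with an interval that held 1, and it was under 2 with no mitochondrial limit (1.53). Plod1, which hydroxylates lysines of the helix, went from 1.22 to 1.98 (1.62, 1.2 to 2.22) and Plod3 from 0.551 to 0.822 (1.49, 0.95 to 2.43), both short of 2 times, although Plod3 was past it at a clustering resolution of 1.5 (2.22), as was Loxl3 without the 3 cells with most of its UMIs (2.20). P4ha1 was just short of it, at 1.34 (1.01 to 1.74) and 2.66 (2.42 to 2.91) with a ratio of 1.98 (1.5 to 2.66), and was over 2 times after subtraction of the lymphoid level or without the 3 cells with most of its UMIs. Serpinh1 was at 5.83 (5.12 to 6.61) in normal and 28.1 (27.3 to 28.9) in fibrosis cells, a ratio of 4.82 (4.24 to 5.51). It was seen in 50 of 63 and 140 of 144 cells, and lymphoid-like cells held 5.0% and 5.3% of these levels.

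**Figure D2:**
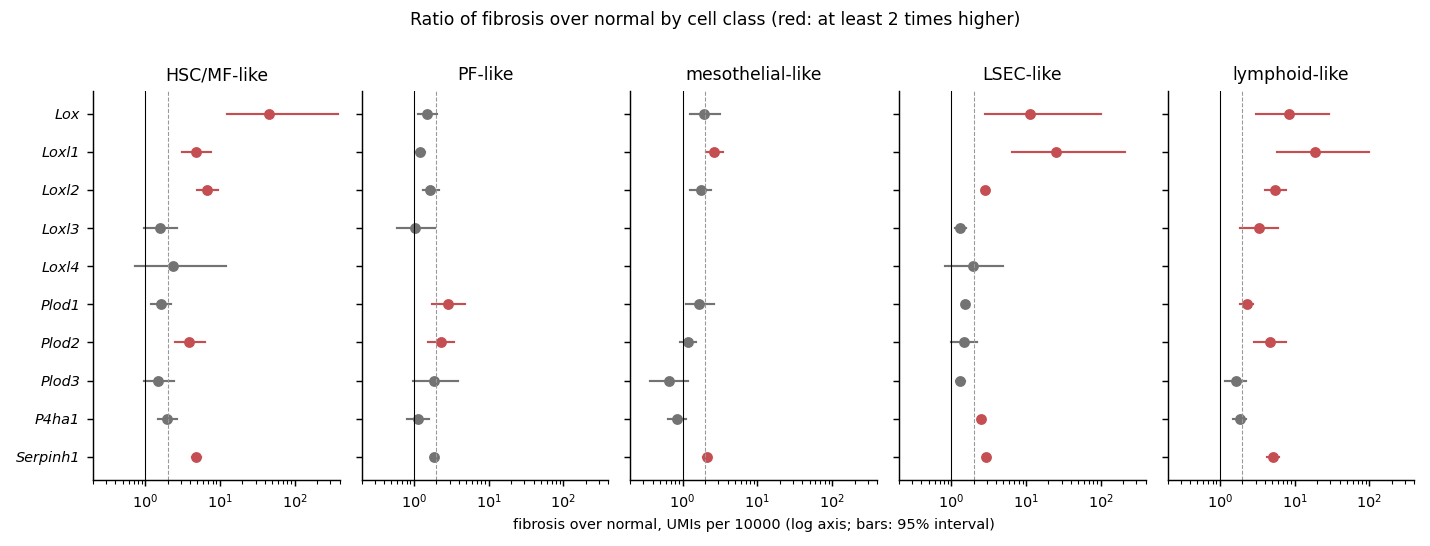
Ratio of the fibrosis over the normal level (log axis) of each member in HSC/MF-like, PF-like, mesothelial-like, LSEC-like and lymphoid-like cells, with exact 95% conditional intervals and with lines at 1 and 2. In HSC/MF-like cells 5 of 10 members are called higher, and Lox, with 2 normal UMIs, lies furthest to the right at 45.3. Loxl4 also lies over 2 there (2.39), with an interval that holds 1. Loxl1 in LSEC-like cells (25.0) and lymphoid-like cells (18.9) rests on levels under 0.1.

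The 2 fibrosis sub-clusters of HSC/MF-like cells differed in these genes. Sub-cluster 4 (66 cells), led by stellate markers such as Colec11, Lrat and Reln, had Lox at 0.577, Loxl1 at 0.904, Plod2 at 0.923 and Serpinh1 at 18.4. Sub-cluster 8 (78 cells), whose leading genes included Robo2, Tagln and Cxcl12, had Lox at 2.88, Loxl1 at 3.37, Plod2 at 2.54 and Serpinh1 at 32.4. Loxl2 differed less, at 4.79 and 6.98, and Loxl3 was 0.808 and 0.675. Against normal cells, sub-cluster 4 alone gave ratios of 12 for Lox and 3.15 for Serpinh1 but 1.64 for Loxl1 and 1.75 for Plod2, so that 3 of 9 measured members were called higher, and sub-cluster 8 alone gave 6 of 10, P4ha1 included. These alternatives were added after the data had been seen. Compared with other mesenchymal cells, sub-cluster 4 was also led by the neutrophil genes S100a8, S100a9 and Il1b, and the normal HSC/MF-like sub-cluster by Ighm, Ccl5, Ccl4 and Fcna of other cell types, and their part in the result was not tested. With no mitochondrial limit, another clustering of the cells put 2 of 8 measured members, Loxl2 and Serpinh1, over 2 times, with Loxl1 at 1.02, and Lox had too few UMIs to be measured.

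**Figure D3:**
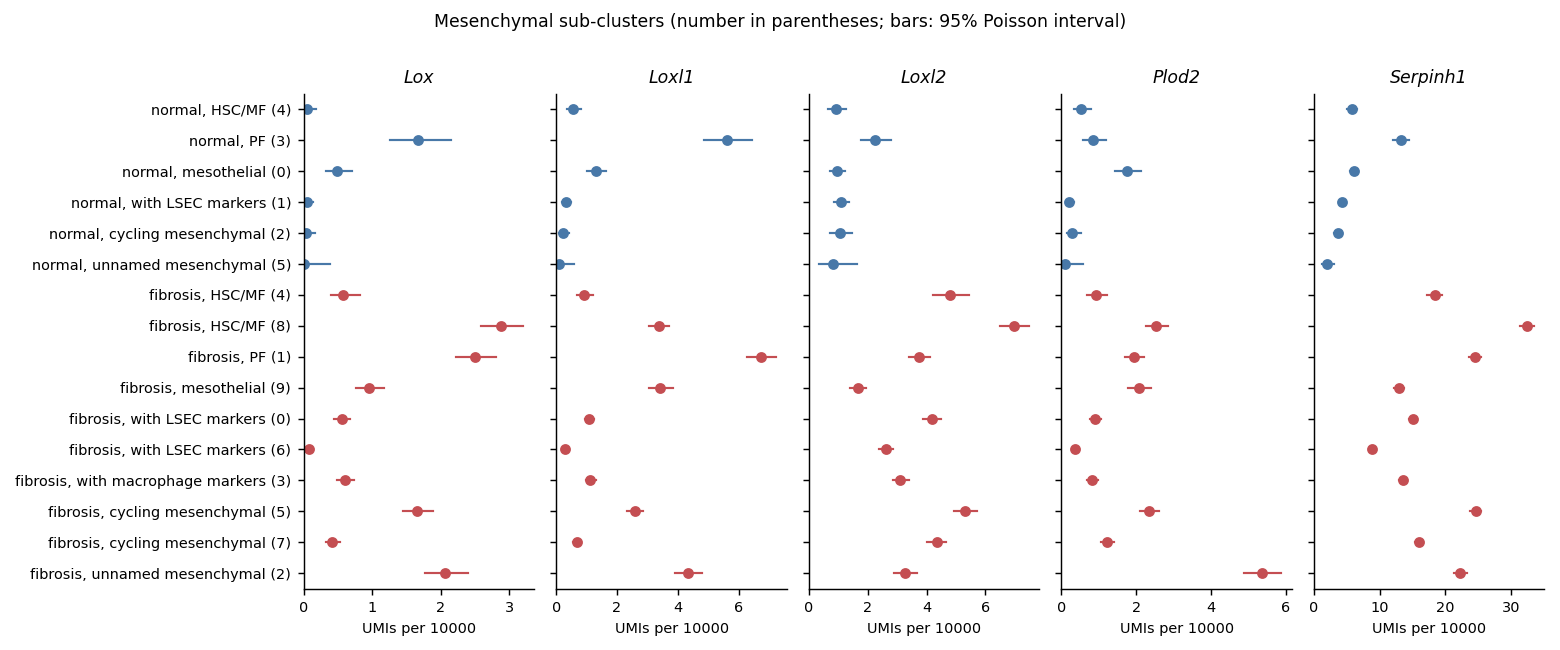
Levels of Lox, Loxl1, Loxl2, Plod2 and Serpinh1 (UMIs per 10000) in the 16 sub-clusters of mesenchymal cells, 6 normal and 10 fibrosis, with exact 95% Poisson intervals. Among fibrosis sub-clusters Lox is highest in HSC/MF-like sub-cluster 8 (2.88) and in PF-like cells (2.50), and Plod2 in the unnamed sub-cluster of 30 cells (5.36).

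An unnamed fibrosis sub-cluster of 30 mesenchymal cells, led by Cxcl5 and Fndc1, had the highest Plod2 level of all 16 mesenchymal sub-clusters, 5.36, with Loxl1 at 4.34, Lox at 2.06 and Serpinh1 at 22.3. It alone held 18.4% of the Plod2 UMIs of the fibrosis library. Its cells were deep (median 30807.5 UMIs), and all 12 mesothelial markers were raised in it over cells outside the mesenchyme and 8 of the 12 over other mesenchymal cells. Cycling mesenchymal sub-clusters with 58 and 38 cells held Lox at 1.65 and 0.417 and Loxl2 at 5.32 and 4.34. A further group had more LSEC than mesenchymal markers among its 10 leading genes over other mesenchymal cells, although its normal cells and fibrosis sub-cluster 0 had only 1 each, and Ltf, Ngp and Camp, granule genes of neutrophils, were among the leading genes of the normal cells. Their part in the levels was not tested. Of the 14 LSEC markers, 13 were raised over other mesenchymal cells in its 43 normal cells and 14 in fibrosis sub-cluster 6 (65 cells), but only 3 in fibrosis sub-cluster 0 (68 cells). Loxl2 was at 1.08 in the normal cells, 2.61 in sub-cluster 6 and 4.17 in sub-cluster 0, and Serpinh1 at 4.28, 8.79 and 15.1. In both fibrosis sub-clusters these levels lay between those of LSEC-like and HSC/MF-like cells. The median doublet scores of the group were 0.114 in normal and 0.107 in fibrosis cells, against 0.0353 and 0.0637 in HSC/MF-like cells.

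PF-like cells had the lysyl oxidases at high levels already in the normal liver, and these differed less between the mice than in HSC/MF-like cells, while the ratios of the summed lysyl hydroxylases had overlapping intervals in these classes. Of 9 measured members 2 were called higher, the lysyl hydroxylases Plod1 and Plod2, beside 10.1% of 8856 genes, and 0 lower, beside 7.36%. Plod1 went from 0.534 (0.322 to 0.834) to 1.51 (1.29 to 1.75), a ratio of 2.82 (1.75 to 4.80), with lymphoid-like levels of 59.5% and 48.1% of these. Plod2 went from 0.843 (0.569 to 1.2) to 1.94 (1.70 to 2.21), a ratio of 2.30 (1.57 to 3.49). Together the PLOD genes gave 2.39 (1.82 to 3.18), beside 2.10 (1.70 to 2.63) in HSC/MF-like cells, and the lysyl oxidases 1.33 (1.18 to 1.49), beside 5.81. Plod1 and Plod2 were not measured on thinned cells.

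Per 10000 UMIs, the measured lysyl oxidases of PF-like cells were all under 2 times. Lox was 1.66 and 2.50 (ratio 1.5, 1.13 to 2.03), Loxl1 5.62 and 6.74 (1.2, 1.03 to 1.41) and Loxl2 2.25 and 3.75 (1.67, 1.31 to 2.14). On cells thinned to 1000 UMIs the ratios of Lox (0.618) and Loxl2 (0.721) lay on the other side of 1. Loxl4 had 6 and 5 UMIs and was not measured. Serpinh1 went from 13.2 (12 to 14.5) to 24.5 (23.6 to 25.4), a ratio of 1.85 (1.68 to 2.05). Between the classes, the normal PF-like level exceeded the HSC/MF-like one 34.6 times (9.16 to 292) for Lox, 2.41 times (1.62 to 3.62) for Loxl2 and 2.27 times (1.94 to 2.66) for Serpinh1. In fibrosis this order was gone for Lox (1.15, 0.98 to 1.34) and turned for Loxl2 (0.595, 0.531 to 0.666) and Serpinh1 (0.872, 0.832 to 0.914), but kept for Loxl1 (2.58, 2.30 to 2.91). The 61 fibrosis PF-like cells also carried more HSC markers than the 44 normal ones, with a sum of 52.1 against 24.7 per 10000 and with all 18 and 16 of the 18 listed genes above 0, and less of the 14 PF markers, with a sum of 58.5 against 106. The part of this shift in the ratios was not tested.

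Mesothelial-like cells, which cover the liver surface, had 2 of 8 measured members called higher, Loxl1 and Serpinh1, beside 11.5% of 8777 genes, and 0 lower, beside 6.57%. Loxl1 was 1.29 in 44 normal and 3.42 (3.04 to 3.83) in 48 fibrosis cells, a ratio of 2.65 (2.04 to 3.47). For Serpinh1 the levels were 6.10 (5.47 to 6.78) and 12.9 (12.2 to 13.7), a ratio of 2.11 (1.87 to 2.39). Lox lay just inside the limit with 0.484 and 0.949 (1.96, 1.26 to 3.15), and was just past it with no mitochondrial limit (2.0), without the cells of highest doublet score (2.15) and without the 3 cells with most of its UMIs (2.02). Plod2 was high in both, at 1.76 (1.43 to 2.14) and 2.08 (1.79 to 2.41), which was 3.33 times (2.08 to 5.56) the HSC/MF-like level in normal and 1.02 times (0.847 to 1.22) in fibrosis. P4ha1 was 1.63 and 1.38, with an interval of the ratio that held 1 (0.847, 0.640 to 1.12). With a mitochondrial limit of 5% the calls of Loxl1 (1.30) and Serpinh1 (1.70) were lost, Lox gave 0.854 and Plod2 alone was called higher (2.03). The unnamed sub-cluster of 30 cells was kept out of this class because as many PF as mesothelial markers led it over cells outside the mesenchyme. With it added, an alternative chosen after the data had been seen, 6 of 9 measured members were called higher, with Plod2 at 2.10 (1.70 to 2.63), Lox at 3.09 and Loxl2 at 2.57.

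RNA of the 5 fibrillar collagen genes Col1a1, Col1a2, Col3a1, Col5a1 and Col5a2 differed more between the mice than that of most members. In HSC/MF-like cells their sum was 26.3 and 323 per 10000 UMIs, a ratio of 12.3. Per 100 of these collagen UMIs, Serpinh1 was 22.1 in normal and 8.71 in fibrosis cells, a ratio of 0.394 (0.346 to 0.45), the lysyl oxidases together 7.83 and 3.71 (0.474, 0.382 to 0.595), and the lysyl hydroxylases 8.74 and 1.5 (0.172, 0.139 to 0.214). Lox was the exception at 0.182 and 0.673 (3.69, 1.02 to 30.6). The other 9 members were scarcer per collagen RNA in the fibrosis cells, with intervals under 1. Of these, 4 (Loxl1, Loxl2, Plod2 and Serpinh1) were among the members called higher per 10000 UMIs.

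In PF-like cells the collagen ratio was 2.40, and per 100 collagen UMIs the hydroxylases were 0.754 and 0.750 (0.995, 0.759 to 1.32), the lysyl oxidases 4.55 and 2.52 (0.553, 0.493 to 0.622) and Serpinh1 5.91 and 4.56 (0.772, 0.700 to 0.853). Mesothelial-like cells had a collagen ratio of 2.0, and Serpinh1 stood at 24.0 and 25.4 per 100 collagen UMIs (1.06, 0.937 to 1.2). So the proportion of Serpinh1 to collagen RNA was alike in these 2 mice only in the mesothelial-like class among these 3.

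Endothelial cells, 30.1% of normal cells, held most of the normal Loxl2 and Plod1 RNA, 55.3% and 55.8% of the UMIs. LSEC-like cells, the fenestrated lining of the sinusoids, had 40.9% of the normal library's Loxl2 UMIs, 41.5% of its Plod1 UMIs and 24.7% of its Serpinh1 UMIs, beside 20.8% of its cells. Of the 10 members 5 were called higher in fibrosis in LSEC-like cells, beside 6.48% of 12533 genes, and 0 lower, beside 8.07%. Among these 5, Lox and Loxl1 had 2 normal UMIs each, reached the minimum of 20 only through the fibrosis library and lay under the lymphoid-like level, which leaves Loxl2, P4ha1 and Serpinh1. Normal sub-clusters 2 and 5 (309 and 275 cells) had more portal vessel markers than LSEC markers among their 10 leading genes (Efnb2 and Dll4 against Gpr182), so the sub-clusters are also given by number. Without the sub-clusters led by Dll4, 4 members were higher, and Loxl2 gave 2.65, P4ha1 2.35 and Serpinh1 2.98.

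Loxl2 in LSEC-like cells was at 0.656 (0.602 to 0.712) in normal and 1.84 (1.75 to 1.94) in fibrosis, a ratio of 2.81 (2.55 to 3.10). Over the 6 normal sub-clusters it ranged from 0.449 to 0.751 and over the 4 fibrosis sub-clusters from 1.68 to 1.96. P4ha1 was 0.693 (0.638 to 0.751) and 1.73 (1.64 to 1.82), a ratio of 2.49 (2.26 to 2.75), with ranges of 0.617 to 0.744 and 1.69 to 1.76. For both genes these ranges lay apart. The sub-clusters of a library come from 1 mouse and are not replicates, and the share of all genes with ranges apart was not computed. Serpinh1 was 1.40 (1.32 to 1.48) and 4.13 (4.0 to 4.28), a ratio of 2.96 (2.77 to 3.16), and ranged over 0.786 to 1.57 in normal and 3.69 to 4.64 in fibrosis sub-clusters.

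The lymphoid-like level was a larger part of these levels than of those in HSC/MF-like cells. It came to 20.7% of the normal and 36.3% of the fibrosis LSEC-like level for Serpinh1, 14.7% and 29.0% for Loxl2, and 54.2% and 39.9% for P4ha1. After their subtraction Serpinh1 gave 2.38, Loxl2 2.34 and P4ha1 3.27. Lox (2 and 22 UMIs, ratio 11.4, 2.81 to 100) and Loxl1 (2 and 48 UMIs, ratio 25.0, 6.55 to 212) were also called higher in LSEC-like cells, yet in both libraries they lay under the lymphoid-like level, which was 0.0718 for Lox and 0.0957 for Loxl1 in fibrosis against 0.0268 and 0.0585, so that no expression in LSEC-like cells is read from them. Plod2 was likewise 0.0743 in fibrosis LSEC-like cells and 0.203 in lymphoid-like ones. Plod1 was well above it, at 1.63 (1.55 to 1.72) and 2.53 (2.42 to 2.64), with a ratio of 1.55 (1.45 to 1.66).

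**Figure D4:**
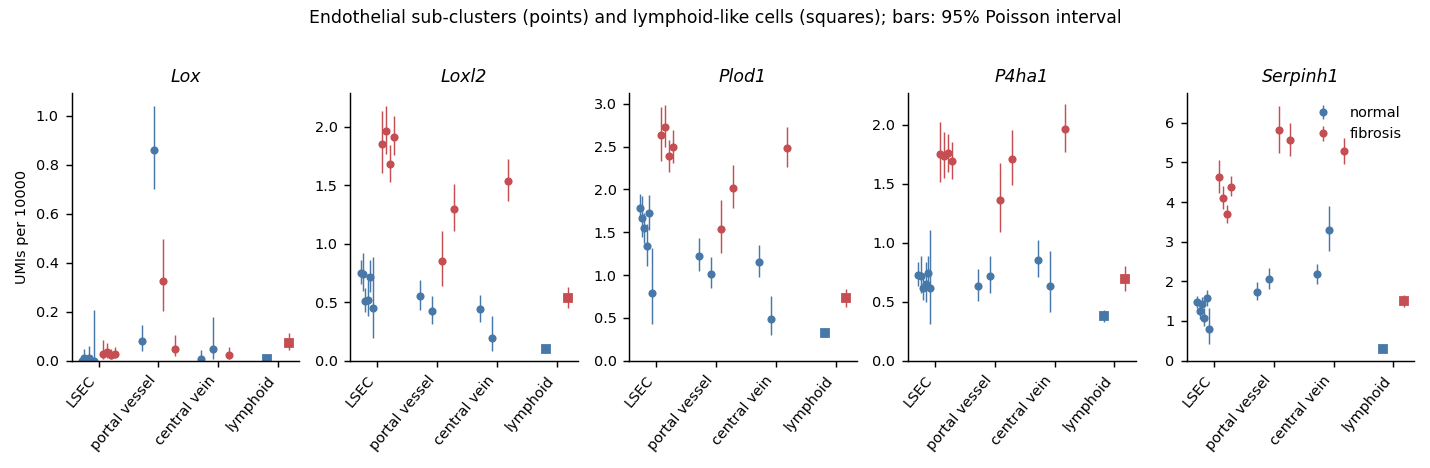
Levels of Lox, Loxl2, Plod1, P4ha1 and Serpinh1 (UMIs per 10000) in each sub-cluster of LSEC-like, portal vessel and central vein endothelial-like cells of both libraries, with exact 95% Poisson intervals, and lymphoid-like cells of the same library as squares. Lox stands out in normal portal sub-cluster 4 at 0.858, and Loxl2, P4ha1 and Serpinh1 lie higher in fibrosis in each of the 3 endothelial classes.

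Vessel endothelium also had higher levels of Loxl2, P4ha1 and Serpinh1 in fibrosis. In portal vessel endothelial-like cells (383 normal, 263 fibrosis) 4 of 8 measured members were called higher, beside 5.83% of 10746 genes, namely Loxl2 (0.490 and 1.15, ratio 2.34), Loxl3 (0.163 and 0.377, 2.31), P4ha1 (0.672 and 1.59, 2.37) and Serpinh1 (1.89 and 5.65, 2.99). Central vein endothelial-like cells (291 and 187) had 4 of 7 higher, beside 5.74% of 10482 genes, with Loxl2 at 0.381 and 1.53 (4.03, 3.08 to 5.34), Plod1 at 1.0 and 2.49 (2.48, 2.08 to 2.97), P4ha1 at 0.802 and 1.96 (2.44, 2.01 to 2.99) and Serpinh1 at 2.43 and 5.28 (2.17, 1.93 to 2.43). None of the 7 was called lower there, beside 8.11%. Plod2 was at 0.228 and 0.145 (0.639, 0.377 to 1.07), with the fibrosis level under the 0.203 of lymphoid-like cells, but its ratio was under 0.5 with no mitochondrial limit (0.388), at clustering resolutions of 0.4 (0.466) and 1.5 (0.473) and after subtraction, which left no Plod2 in fibrosis. Loxl3 in the same cells, at a ratio of 1.92, was over 2 times in the first 3 of these (4.92, 4.83 and 2.86). The lymphoid-like level was 19.7% of the normal and 46.6% of the fibrosis portal level for Loxl2, and 11.9% and 28.4% of the central vein level for Serpinh1. After its subtraction both were short of 2 times, at 1.56 (1.19 to 2.06) and 1.76 (1.55 to 2.0), while portal Loxl3 (2.02), P4ha1 (3.05) and Serpinh1 (2.59) and central vein Loxl2 (3.52), Plod1 (2.58) and P4ha1 (2.98) were still over it. With a mitochondrial limit of 5%, portal Loxl3 (1.80) and P4ha1 (1.69) were also under 2 times.

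Lox in portal vessel endothelial-like cells was called lower, beside 6.92% of genes, the only such call among the members in these 6 classes except under the alternatives given above for central vein Plod2. It was at 0.447 (0.369 to 0.536) in normal and 0.141 (0.0931 to 0.206) in fibrosis cells, from 115 and 27 UMIs, a ratio of 0.316 (0.200 to 0.484). It was counted in 69 of 383 normal cells and in 23 of 263 fibrosis cells, while 4 of 1599 lymphoid-like normal cells had a UMI. The lymphoid-like level was 1.9% of the normal and 50.8% of the fibrosis level. Within the normal cells Lox was concentrated in sub-cluster 4 (165 cells, led by Nrg1, Gja5 and Adgrg6), at 0.858 against 0.0808 in sub-cluster 3 (218 cells). In fibrosis, sub-cluster 7 (107 cells, led by Cyp1a1, Gja5 and Nrg1) held 0.324 and sub-cluster 8 (156 cells) 0.0475. Gja5, the arterial gap junction gene connexin 40, was thus among the leading genes where Lox was high, though also in fibrosis sub-cluster 8.

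The cells that hold Lox RNA accordingly differed between the libraries. Portal vessel endothelial-like cells had 50.4% of all Lox UMIs in the normal library and 1.7% in the fibrosis library. HSC/MF-like cells had 0.9% and 23.0%, and mesenchymal cells of all kinds 40.4% and 88.8%. The normal mesenchymal cells counted here include the 14 unnamed cells led by Ccl21a and Prox1. For Loxl2, endothelial cells of all kinds had 55.3% and 27.7% and mesenchymal cells 21.1% and 58.7%. Loxl1 was mesenchymal in both, with 95% and 90.9%. Such shares also depend on how many cells of each class were captured, which for mesenchymal cells was 3.05% of normal and 9.28% of fibrosis cells. For endothelial cells it was 30.1% and 27.9%, so their part of the fibrosis Loxl2 UMIs was near their share of cells.

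**Figure D5:**
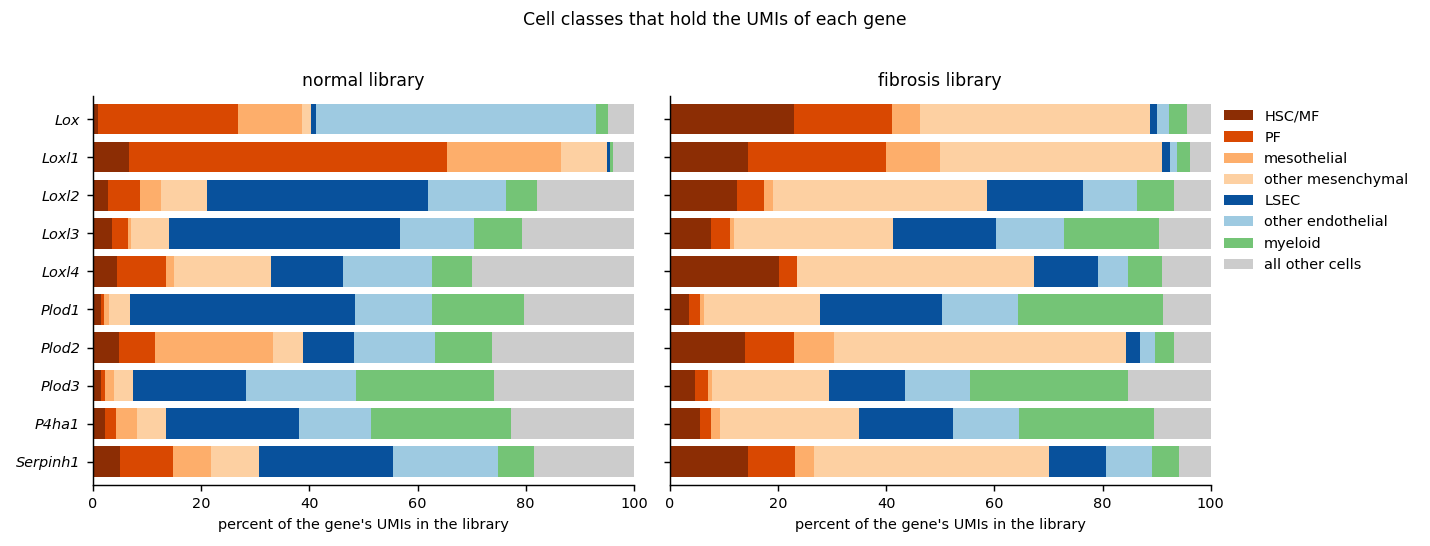
Share of each member's UMIs (percent, stacked to 100) that fell in each group of cell classes, normal and fibrosis library side by side. The endothelial part of Lox is 52.6% in normal and 3.5% in fibrosis, while Plod1 and P4ha1 keep a myeloid part of between 16.9% and 26.7% in both. Myeloid cells are 17.8% of normal and 24.3% of fibrosis cells. The myeloid part of Plod1 in both libraries, and that of P4ha1 in fibrosis, lies near this share of cells.

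Plod1, Plod3 and P4ha1 were also genes of myeloid cells. In Kupffer-like cells Plod1 was at 1.49 (1.35 to 1.65) and 2.55 (2.38 to 2.74) and P4ha1 at 1.17 (1.04 to 1.31) and 2.0 (1.84 to 2.16), both with a ratio of 1.71. Of 6 measured members 3 were called higher there, beside 4.7% of 11128 genes, namely Serpinh1 (0.112 and 0.804), Loxl2 (0.0655 and 0.266) and Loxl3 (0.0501 and 0.165). The levels of Serpinh1 and Loxl2 lay under those of lymphoid-like cells in both libraries. The cells plotted together as myeloid differed in makeup, so they are given by cluster, a choice made after the data had been seen. In normal they were 454 cells of 1 cluster named from conventional dendritic cell markers, although Mpo, Prtn3 and Elane, granule genes of the neutrophil lineage, were also among its 10 leading genes. In fibrosis they were a dendritic-like cluster (323 cells) and a monocyte/macrophage-like cluster led by Gpnmb (523 cells), which had no normal counterpart and is given by level alone.

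In conventional dendritic-like cells 4 of 7 measured members were called higher, beside 11% of 11678 genes. Plod1 went from 0.262 (0.213 to 0.320) to 1.06 (0.937 to 1.18), a ratio of 4.03 (3.19 to 5.12), and its level lay under the 0.318 of lymphoid-like cells in normal and over their 0.726 in fibrosis. P4ha1 was 0.530 and 1.0 (1.90, 1.57 to 2.29) and Plod3 0.595 and 0.551 (0.927, 0.749 to 1.15). The other 3 called higher were Loxl2 (0.0541 and 0.584), Loxl3 (0.0676 and 0.175) and Serpinh1 (0.232 and 1.65), beside 0.534, 0.124 and 1.5 in lymphoid-like cells of the fibrosis library. The monocyte/macrophage-like cluster had Plod1 at 1.42 (1.34 to 1.51), P4ha1 at 1.15 (1.08 to 1.23) and Plod3 at 0.574 (0.523 to 0.629), whereas its Serpinh1 (0.567), Loxl2 (0.231), Loxl1 (0.0408) and Lox (0.0297) lay under the lymphoid-like levels of the same library. Cholangiocyte-like cells, the bile duct epithelium, had Plod2 at 0.246 and 0.367 and Serpinh1 at 1.17 (1.06 to 1.30) and 3.21 (2.95 to 3.48).

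Lymphoid-like cells themselves had 7 of 9 measured members called higher, beside 9.03% of genes, with a median ratio of 4.62. Among these 7, Lox (5 normal and 18 fibrosis UMIs) and Loxl1 (3 and 24) reached the UMI minimum mainly through the fibrosis library. Serpinh1 went from 0.289 to 1.5 (5.18, 4.31 to 6.25), Loxl2 from 0.0964 to 0.534 (5.54, 4.04 to 7.69) and Plod2 from 0.0440 to 0.203 (4.62, 2.83 to 7.73). These ratios are close in size to those of HSC/MF-like cells, at 5.3%, 8.5% and 10.0% of their fibrosis levels. The part of this RNA in ratios of low levels was not tested beyond the subtraction. Hepatocyte markers went the other way, with all 10 counted in HSC/MF-like cells and a sum of 120 per 10000 UMIs in normal against 9.32 in fibrosis cells.

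Other genes of the pathway were counted from 3 lists. Of all genes, 6.99% were called higher and 5.88% lower in HSC/MF-like cells, and 10.1% and 7.36% in PF-like cells. The shares were 11.5% and 6.57% in mesothelial-like and 6.48% and 8.07% in LSEC-like cells. List counts of only 1 or 2 genes, here and in the next paragraph, lie near these shares and are not read as results. Of 18 measured collagen-modifying enzymes and chaperones outside the members, 12 were called higher in HSC/MF-like cells and 0 lower, among them P4ha2 (8.27), the procollagen N-proteinase gene Adamts2 (5.02), the chaperone gene Fkbp10 (4.77), Colgalt1 (3.07), which adds galactose to hydroxylysine, and P4hb (2.37). Of 15 substrates and assembly partners 13 were higher and 0 lower, with Col1a1 from 2.28 to 89.2 (39.2) and the elastin gene Eln from 0.480 to 2.86 (5.97). Of 8 measured genes known to respond to hypoxia 0 were called either way, with a median ratio of 0.879.

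In PF-like cells the same lists gave 6 of 19 enzymes higher and 2 lower, with Tmem38b at 6.10 and Pcolce2, an enhancer of procollagen C-proteinase, at 0.0357, and 6 of 15 substrates higher and 1 lower (Fn1, 0.445). Mesothelial-like cells had 1 of 16 enzymes higher (Crtap, 2.29) and 2 lower, 7 of 15 substrates higher and 2 lower (Fmod, 0.125, and Fbln5, 0.123), and 3 of 10 hypoxia genes higher (Vegfa, Ldha and Adm). In LSEC-like cells 3 of 20 enzymes were higher and 2 lower, 11 of 14 substrates higher and 1 of 11 hypoxia genes higher and 1 lower, Vegfa, at 0.283 and 0.134. The substrates of LSEC-like cells included Col4a1, a basement membrane collagen, at 6.23 and 13.5 (2.16), and Col1a1 at 0.0152 and 1.18. Lymphoid-like and Kupffer-like cells each had 12 of 14 substrates higher. The median substrate ratio was 4.38 in lymphoid-like, 4.39 in Kupffer-like and 3.45 in LSEC-like cells. The part of free RNA in the LSEC-like substrate levels was not tested.

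Likeness of pattern was described by the Pearson correlation of log2(level + 0.1) over 30 points, 15 classes in each library, with 14067 genes compared; the points of a library share its depth and its free RNA. Lox was most like Plat (0.97), Col5a2 (0.92) and Loxl1 (0.91), and Loxl1 most like Col6a2 (0.99), Mmp23 (0.98) and Smoc2 (0.98). The nearest genes to Loxl2 were Ccdc80 (0.96), Sparc (0.95) and Calu (0.94), and to Serpinh1 Sparc (0.97), Lamc1 (0.95) and Efemp2 (0.94). Plod2 lay nearest to Kirrel (0.94), Fkbp10 (0.93) and P3h4 (0.93). The nearest gene was Slc39a1 (0.92) for Plod1, Tbc1d2b (0.88) for P4ha1, Fbxo18 (0.89) for Plod3, Adgra2 (0.94) for Loxl3 and Adcyap1r1 (0.91) for Loxl4. Among the 3 nearest genes of each member, only Col5a2 (Lox), Fkbp10 and P3h4 (Plod2) and Efemp2 (Serpinh1) were on the pathway lists. Between members, r was highest for Loxl2 with Serpinh1 (0.93) and lowest for Loxl4 with Plod1 (0.08), and Plod1 with Plod2 gave 0.15.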

How the data were processed

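Liver NPCs of 1 normal and 1 CCl4-treated mouse were profiled by 10x 3′ scRNA-seq. The authors aligned reads to mm10 with Cell Ranger 3.0.1 (submitters' processing notes and methods) and deposited raw UMI counts per gene and cell, without normalization. The filter of the study was applied here (mitochondrial share below 10%, more than 200 genes). Groups came from the labels. Computations used Python 3.11.15, scanpy 1.11.5, numpy 2.4.6, scipy 1.17.1, pandas 2.3.3, igraph 0.11.9 and matplotlib 3.10.9.

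Each library was scaled to 10000 UMIs per cell and log-transformed, and clustered by Leiden (2000 variable genes, 10 components, 20 neighbours, resolution 0.8) with the members and 50 pathway genes held out. Mesenchymal and endothelial cells were clustered again. Clusters were named from 214 markers in 21 lists, by the class with most markers among the 10 genes of highest fold if at least 60% of its markers were raised. Mesenchymal sub-clusters were compared with other mesenchymal cells, where 3 raised markers were enough, and only if none led there with cells outside the mesenchyme, at 60% and with no tie between classes. Over those cells 6 of 14 PF markers were raised in the fibrosis PF-like cells, and over cells outside the mesenchyme 11 of 14. These rules were set after the clusters had been seen. Doublets were scored by Scrublet (1 cell called in each library) and not removed.

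All members are named; of the pathway lists any gene past the 2-times limit could be named; the 3 genes of most similar pattern were taken per member. Members and lists were chosen with earlier results of these data known. The alternatives concerned filters, clustering, scaling, deep cells, thinning, free RNA and the UMI minimum. On simulated HSC/MF-like counts with 200 genes changed 4 times, 160 of 162 measured ones were called in the right direction, 1.49% of 9318 unchanged genes were called, and 96.5% of intervals held the true ratio. These counts were Poisson draws, the error that the intervals assume, so such a share of intervals was set by the design. They had no variation between cells or mice and no free RNA, so 1.49% is not a rate of false calls in the data. A gene at 0 has a limit of 3 counts.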

Additional observations from a re-analysis of the deposited data

Results flagged for a closer look

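Lox differed in opposite directions between cell classes under the same contrast. Its fibrosis level was 45.3 times the normal one in HSC/MF-like cells and 11.4 times in LSEC-like cells, where both levels lay under that of lymphoid-like cells, but 0.316 times in portal vessel endothelial-like cells. With 1 library per condition the difference between the classes was not tested. The portal vessel ratio stayed under 0.5 in the alternatives except at a clustering resolution of 0.4, where it was 0.531, and subtraction of the lymphoid-like level gave 0.155. No group had 4 or more samples, so outlying samples were not looked for, and no data stood outside the comparisons.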

How the results depend on the processing

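No paired analysis was possible because each condition had 1 library, and for the same reason no library could be left out. Counting UMIs per cell in place of per 10000 UMIs, which adds the greater depth of fibrosis cells, put 10 members at least 2 times higher in HSC/MF-like, 9 in PF-like, 5 in mesothelial-like and 10 in LSEC-like cells, against 5, 2, 2 and 5 in the report. In HSC/MF-like cells the count was 2 with no mitochondrial limit and 3 with fibrosis sub-cluster 4 alone. It was 4 in PF-like cells without the 3 cells holding most UMIs of a member and 1 after thinning to 1000 UMIs (Serpinh1), where Plod1 and Plod2 had too few UMIs to be measured. Thinning left 5 in HSC/MF-like cells, with Plod1 in place of Plod2. In mesothelial-like cells it was 1 with a mitochondrial limit of 5% (Plod2), 1 after subtraction of the lymphoid-like level, 0 after thinning, where 2 members were measured, and 6 with the unnamed sub-cluster of 30 fibrosis cells added. In LSEC-like cells it was 3 with a mitochondrial limit of 5% and 3 after thinning. The cause was not tested, apart from the fewer UMIs that thinning leaves. Portal Loxl2 was also under 2 times with a mitochondrial limit of 5% (1.64) and at a resolution of 0.4 (1.85), portal P4ha1 with no mitochondrial limit (1.92), and central vein Serpinh1 with no mitochondrial limit (1.78) and at resolutions of 0.4 (1.84) and 1.5 (1.99). Of 499 single ratios under these alternatives 391 moved by less than their counting interval and 108 moved further. A call was kept or stayed absent in 430, was lost in 21, was gained in 48 and was reversed in 0. The HSC/MF-like class was not found in both libraries at a resolution of 0.4, nor the PF-like and central vein classes at a mitochondrial limit of 5%, so these gave no value. Depth limits Loxl4 in all classes, and Lox in normal HSC/MF-like cells, where 2 UMIs set the width of the ratio's interval.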
